A study of Mus musculus with 12 samples.

Results

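Interferon response genes are the genes whose transcription a cell raises when interferon, a secreted alarm protein of the antiviral defence, binds its receptor. A list of 48 such genes was followed across 12 arrays of sorted mouse thymocytes, each gene being found by its symbol in the annotation of the array's probes. Of the 48 genes, 44 had an annotated probe, and 38 had at least 1 probe detected (detection p under 0.05) on 3 or more arrays and were tested. Their 66 kept probes stand among 20416 kept probes of 45281 on the array, which cover 10497 genes in all. The rule uses the probes' annotation and detection only, but the genes were listed with earlier results of these data known.

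The cells were CD4-CD8 double-negative (DN) thymocytes, the most immature T-cell precursors of the thymus. NHD13 Lyl1-knockout mice (3 arrays, below the knockout group) carry the NHD13 transgene and lack the transcription factor Lyl1. NHD13 mice (3 arrays) have Lyl1 and carry the transgene, which joins part of NUP98, a nuclear pore protein, to the homeobox protein HOXD13. Wild-type mice (6 arrays) carry neither change. All were C57 BL/6 mice aged 2 to 3 months, and about 300 ng of total RNA went onto each Illumina MouseWG-6 v2.0 beadchip array. Which promoter drives the transgene is not given in the sources used, and mice that lack Lyl1 but have no transgene are not among the groups. The labels do not say whether replicate arrays stand for separate animals, so the p-values here describe the spread between arrays, which may be technical. Detected probes numbered 17168 to 19464 per array.

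Type I interferons signal through the receptor chains Ifnar1 and Ifnar2 and the kinases Jak1 and Tyk2 to a complex that includes Stat2 and Irf9. That complex binds the interferon-stimulated response element (ISRE) in the promoters of its target genes. The products sense foreign nucleic acids, block viral replication, process antigens and, in the case of Irf7, amplify interferon production itself. Interferon gamma acts through a different receptor and another promoter element, the gamma-activated site (GAS), and many genes answer to both.

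The promoters of 6 members are shown because they are the start regions on which that complex would act, and because they differ in whether they hold the response element. Each runs from 250 bases before to 50 bases after the gene's start, 5′ to 3′ on the gene's own strand, from RefSeq on the GRCm38.p6 assembly. Capitals mark the core of the ISRE, which is GAAA, any 2 bases and GAAA again, on either strand (read from the opposite strand it is TTTC, any 2 bases and TTTC). The first 4 are the members with the lowest adjusted p in NHD13 against wild type among those that hold the motif. Irf7 and Cmpk2 are shown as members without it.
Isg15 (chr4:156200769-156201068, minus strand): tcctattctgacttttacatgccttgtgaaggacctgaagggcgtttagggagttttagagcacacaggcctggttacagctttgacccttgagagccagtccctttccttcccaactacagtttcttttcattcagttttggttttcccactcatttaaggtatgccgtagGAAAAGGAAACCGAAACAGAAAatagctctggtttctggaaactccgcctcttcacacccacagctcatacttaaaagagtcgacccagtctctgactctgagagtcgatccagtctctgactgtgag
Oas3 (chr5:120777610-120777909, minus strand): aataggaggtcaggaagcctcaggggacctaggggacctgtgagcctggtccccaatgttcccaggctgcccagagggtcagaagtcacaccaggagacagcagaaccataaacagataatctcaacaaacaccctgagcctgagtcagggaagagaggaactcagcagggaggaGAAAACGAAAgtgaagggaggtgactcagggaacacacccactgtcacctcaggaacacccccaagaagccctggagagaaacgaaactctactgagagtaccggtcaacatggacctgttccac
Rsad2 (chr12:26456403-26456702, minus strand): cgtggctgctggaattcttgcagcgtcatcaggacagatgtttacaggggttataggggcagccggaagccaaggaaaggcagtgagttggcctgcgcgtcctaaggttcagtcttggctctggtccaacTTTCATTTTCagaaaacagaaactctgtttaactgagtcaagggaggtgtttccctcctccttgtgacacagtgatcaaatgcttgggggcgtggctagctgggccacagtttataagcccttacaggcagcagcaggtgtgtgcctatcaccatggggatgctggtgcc
Ifit3 (chr19:34583279-34583578, plus strand): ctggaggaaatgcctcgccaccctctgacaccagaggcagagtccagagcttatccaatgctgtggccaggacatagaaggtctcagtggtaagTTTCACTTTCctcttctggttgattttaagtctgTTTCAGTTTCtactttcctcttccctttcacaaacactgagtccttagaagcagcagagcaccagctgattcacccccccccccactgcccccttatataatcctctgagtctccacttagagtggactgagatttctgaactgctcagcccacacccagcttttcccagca
Irf7 (chr7:141266375-141266674, minus strand): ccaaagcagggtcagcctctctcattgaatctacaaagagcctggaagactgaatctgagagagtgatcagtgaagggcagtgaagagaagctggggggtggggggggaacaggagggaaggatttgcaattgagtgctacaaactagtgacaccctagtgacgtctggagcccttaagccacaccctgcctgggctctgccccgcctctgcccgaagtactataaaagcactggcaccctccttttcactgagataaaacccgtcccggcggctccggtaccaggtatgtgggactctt
Cmpk2 (chr12:26468965-26469264, plus strand): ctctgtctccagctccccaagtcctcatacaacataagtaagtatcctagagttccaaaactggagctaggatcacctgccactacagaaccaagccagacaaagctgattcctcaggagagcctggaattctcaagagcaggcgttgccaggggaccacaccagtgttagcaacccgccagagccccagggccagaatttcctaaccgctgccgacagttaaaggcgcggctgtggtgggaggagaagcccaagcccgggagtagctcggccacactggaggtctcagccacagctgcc
Isg15 held 3 overlapping copies of the core, the first bases of which lie at -78, -72 and -66 relative to the gene start. Oas3 held 1 copy at -75 and Rsad2 1 at -120. Ifit3 held 2 copies, at -156 and -122.

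RefSeq windows were available for 37 of the 48 members, and 17 of these 37 (45.9%) held the ISRE core, against 1079 of 27025 genes (3.99%) in the whole table. The other 13 members with the core were Eif2ak2, Bst2, Stat2, Ddx58, Gbp2, Ifitm3, Gbp3, Cxcl10, Ddx60, Ifi203, Ifih1, Ifit1 and Oas1a. GAS, written TTCNNNGAA and the same on both strands, stood in 11 of the 37 (29.7%), against 2582 of 27025 genes (9.55%). The core stood in 5 of 19 members that were higher in NHD13 thymocytes than in wild type and in 6 of 9 tested members that were not. Windows were at hand for only 19 of the 28 members that rose, but for 9 of the 10 tested members not called. Whether risen members hold the core less often therefore cannot be told. The windows of Tap1 and Psmb9 overlap on opposite strands, so these genes share most of that sequence. A missing match says only that these letters are not in this window, and 11 members (Dhx58, Rtp4, Usp18, Ifi204, Oas2, Parp9, Zbp1, Ifi27, Parp14, Mx1 and Mx2) had no window. All of these 11 but Ifi204, which was not tested, and Zbp1 were higher in NHD13.

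Lyl1 itself had log2 levels of 4.75, 4.73 and 4.68 in the knockout group, 11.18, 11.19 and 11.10 in NHD13, and 6.79 to 7.39 in wild type, so the knockout arrays lie below detection, which started at 5.33 to 5.44. The sources used do not say whether the probe lies in the deleted part of the gene. The 12 arrays fell into 2 classes by the spread of the signal of probes that were not detected on any array. The labels name no batch, and the source of the classes was not tested. The interquartile range of that signal was 6.57% to 9.18% of its median on wild-type replicates 1 to 3 and the knockout group, and 12.5% to 15.4% on NHD13 and wild-type replicates 4 to 6. NHD13 and knockout arrays therefore never share a class, and both can be set within a class against wild type only. The female-specific transcript Xist was at 10.83 or above on every array except knockout replicate 3 and wild-type replicates 1 to 3, where it was at 4.83 or below. Knockout replicate 1 stood apart in its markers. Its summed level of 8 T-lineage genes was 14100 against 66400 and 64100 on the other knockout arrays, and its summed level of 9 neutrophil and myeloid genes was 71300 against 408 and 344. As labelled, Cd8a was undetected on every array and Cd4 was detected on only 4 of 12, while Cd8b1 was detected on all 12.

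Interferon response genes were higher in NHD13 thymocytes than in wild type almost throughout. Of 38 tested members, 28 rose and 0 fell (limma, adjusted p under 0.05), where 11.6% of all 10497 genes rose and 12.6% fell. Their median log2 difference was 1.27, against -0.00108 over all genes, and 37 of 38 differences were positive. At an unadjusted p under 0.05, 35 were higher and 0 lower. The share of all genes at an unadjusted p was not counted, here or below. The shares given hold for adjusted calls and are no measure for unadjusted counts. In 32 members every NHD13 array lay above every wild-type array, which 14.8% of all genes did. All 38 were detected on at least 3 arrays outside the NHD13 group, and 34 on every array, so none entered the test through its level in NHD13 alone. In these sorted populations, fewer cells of a type and less RNA per cell cannot be told apart.

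In the knockout group most of this excess was gone. Set against NHD13, 27 of 38 members fell and 0 rose (limma), where 9.22% of all genes fell and 13% rose, and the median log2 difference was -1.26 against 0.06 over all genes. The count at an unadjusted p under 0.05 was 30 lower and 0 higher. In 30 members every knockout array lay below every NHD13 array, against 16.6% of all genes. Set against wild type, the knockout group had 3 members higher (Irf7, Isg15 and Cmpk2) and 0 lower (limma), where 4.49% of all genes were higher and 3.81% lower, with a median of 0.27 against 0.08 over all genes. At an unadjusted p under 0.05, 8 were higher and 0 lower, a count that the share of 4.49% does not measure. In 3 members every knockout array lay above every wild-type array, against 9.2% of all genes. These comparisons share arrays in pairs, so that a high NHD13 level alone raises the first difference and lowers the second. Of the 28 members that rose in NHD13, 26 had a knockout mean nearer to wild type than to NHD13, and 7 of these lay below the wild-type mean. Isg15 and Cmpk2 were the other 2.

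**Figure D1:**
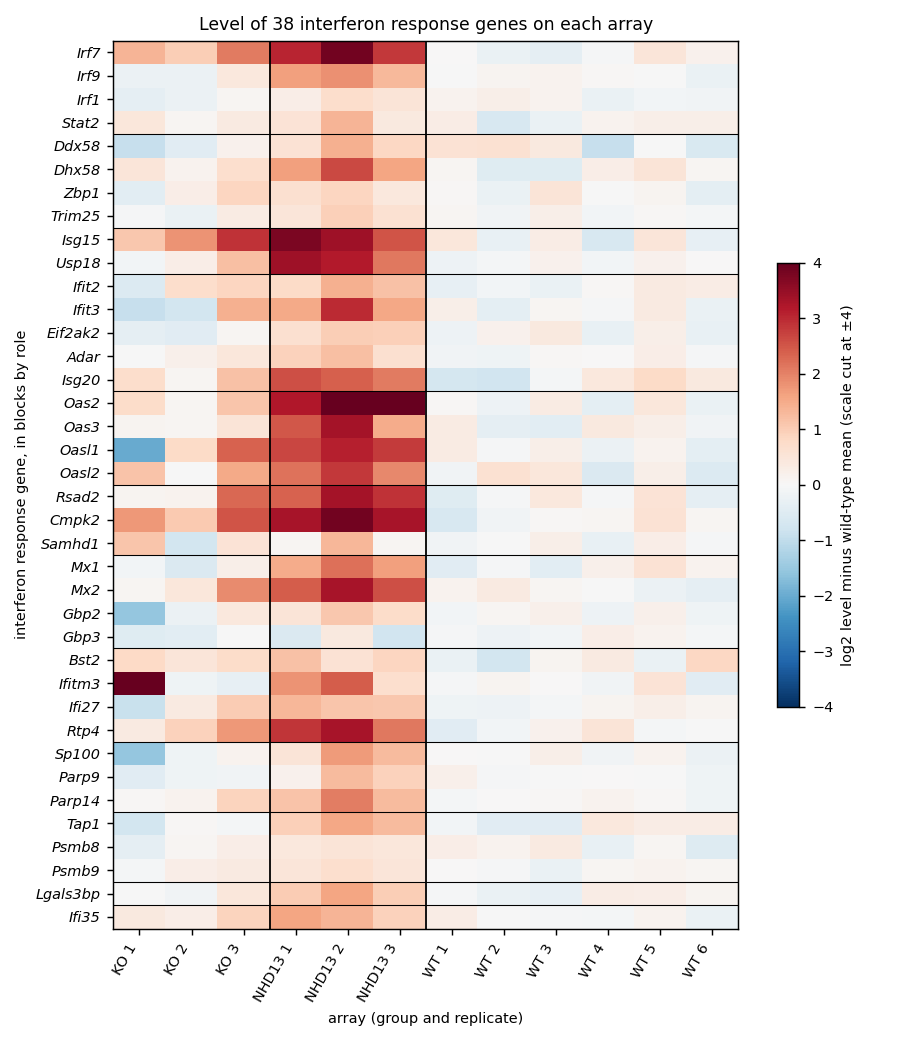
Log2 level of each of 38 tested interferon response genes (rows, in blocks by role) on each of 12 arrays (columns), as the difference from the gene's wild-type mean, on a colour scale cut at 4 in either direction. The 3 NHD13 columns are red in nearly every row, the 6 wild-type columns stay pale, and among the 3 knockout (KO) columns replicate 3 is the reddest.

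The background classes bear on these counts. Within the class that NHD13 shares with wild-type replicates 4 to 6, 32 members were higher and 0 lower. Of all probes 9.21% were higher and 10.3% lower there. With the class as a block in the fit of all arrays 27 members were higher, beside 7.69% of all probes. Within the knockout group's class, against wild-type replicates 1 to 3, only Irf7 and Cmpk2 were higher, beside 2.08% of all probes. With the class as a block 5 members were higher (Irf7, Isg15, Isg20, Cmpk2 and Bst2), beside 7.02% of all probes. Knockout against NHD13 has no value within a class. With the class as a block, 12 members were lower (Irf9, Irf1, Ddx58, Usp18, Eif2ak2, Oas2, Oas3, Oasl2, Mx1, Mx2, Parp9 and Psmb8), with 36 of 38 differences still negative and a median of -1.14. Of all probes 6.93% were lower with that block, in place of 9.77%. The wild-type arrays of the class shared with NHD13 differed from those of the other class, and also in Xist, by a median of 0.03 over the 38 members, with 20 members above and 18 below, and by 0.06 over all genes. Single members differed by more, from -1.03 for Ddx58 to 1.05 for Isg20, so the median does not stand for each member. Scaling also counted. When the arrays were scaled by their medians instead of quantile-normalized, the median of all probes itself moved to 0.26 in NHD13 against wild type, 3456 probes were called higher and 838 lower (in place of 1999 and 2296), and 34 members were higher with a median of 1.64, which is 1.37 above that of all probes. Knockout against wild type moved likewise to 0.24 over all probes (2218 higher and 778 lower, in place of 831 and 1122) and to 5 members higher.

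**Figure D2:**
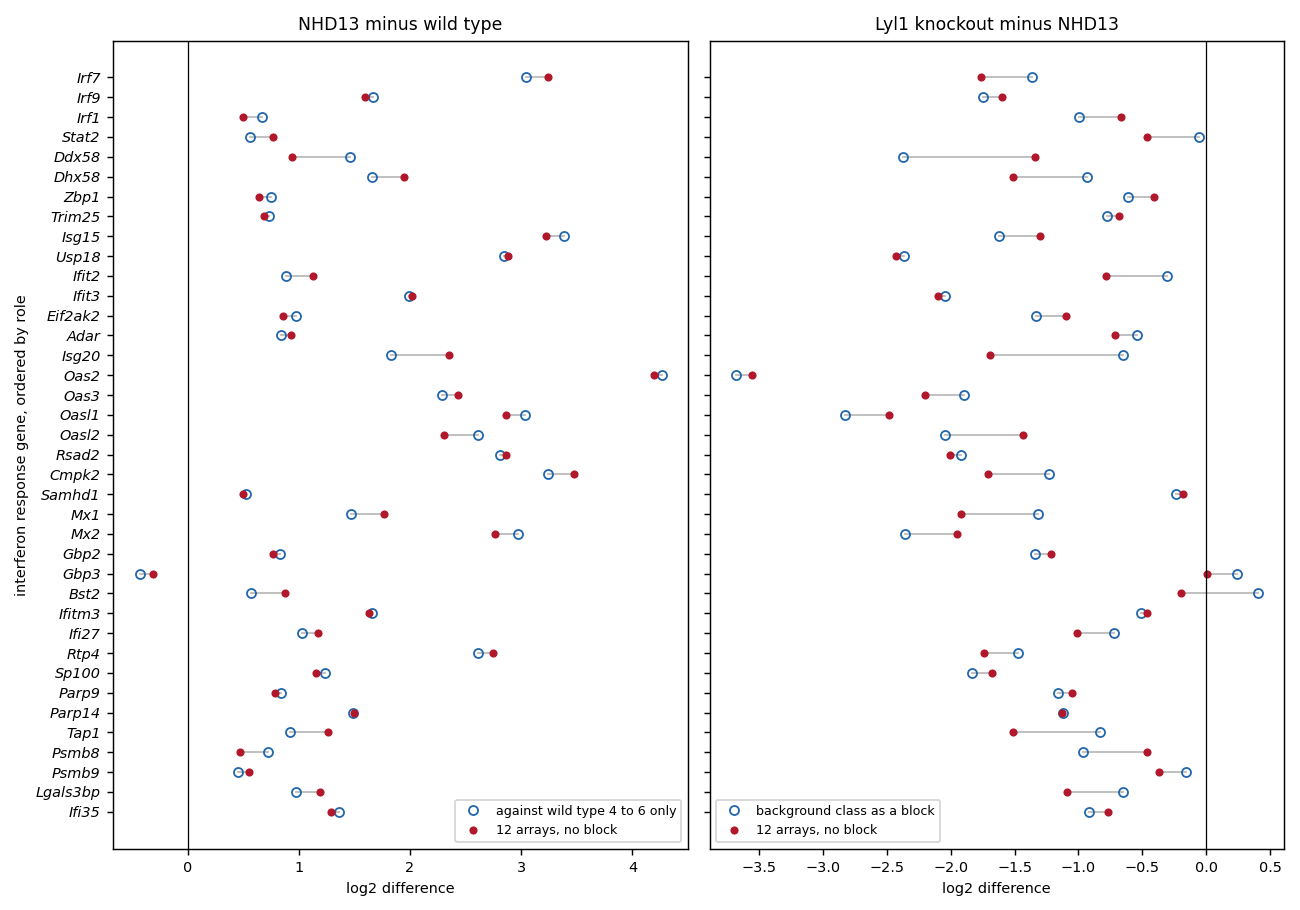
Log2 difference of each of 38 members in NHD13 minus wild type (left) and in knockout minus NHD13 (right), with filled points for the fit of all 12 arrays without a block and open circles for the value that takes the background class into account. On the left 37 of 38 members stay above 0 both ways; on the right 36 of 38 lie below 0 with the class as a block, and Gbp3 and Bst2 lie above it.

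The arrays of a group were not alike. Taken as the median over 38 members of the difference from the wild-type mean, the knockout arrays stood at -0.04, 0.09 and 0.62, the NHD13 arrays at 1.25, 1.63 and 1.21, and the wild-type arrays between -0.15 and 0.23. NHD13 replicate 2 had the highest NHD13 level in 32 of 38 members, and knockout replicate 3 the highest knockout level in 33. NHD13 replicate 2 also had a summed neutrophil and myeloid level of 38600 against 3150 and 1620 on the other NHD13 arrays, and knockout replicate 3 was the knockout array with low Xist. Their part in the members' levels was not tested. Without NHD13 replicate 2, 19 members were higher and 1, Gbp3, lower than in wild type with a median of 1.21. Of all probes 5.75% were then higher, in place of 9.79%. In the knockout group 16 members were then lower than in NHD13, beside 5.45% of all probes in place of 9.77%. Leaving out knockout replicate 2 also gave 16 lower, beside 6.86% of all probes. Without knockout replicate 1, which stood apart, the counts were 31 higher in NHD13 than in wild type, 20 lower in the knockout group than in NHD13, and 5 higher in the knockout group than in wild type (Irf7, Isg15, Oasl1, Cmpk2 and Rtp4). The shares of all probes were then 11.9%, 8.8% and 2.64%.

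**Figure D3:**
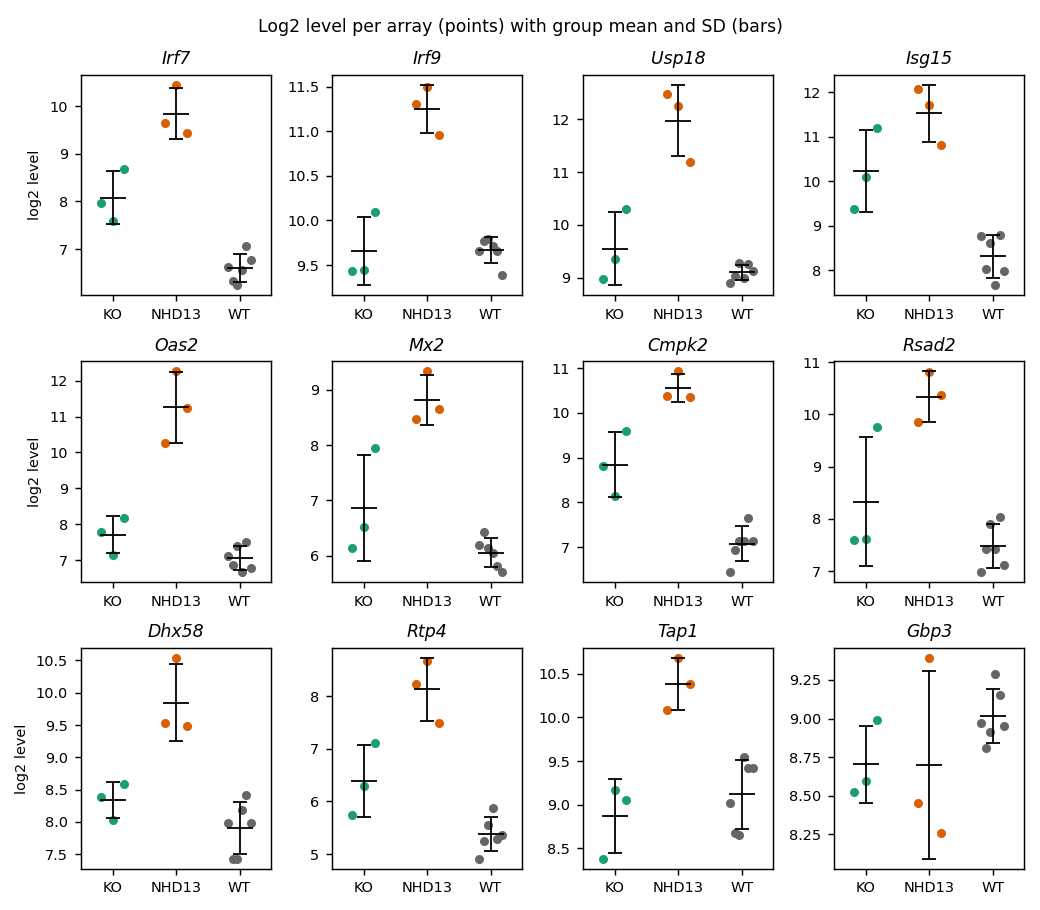
Log2 level of 12 members on each array (points) with the group mean and SD (bars), for the knockout group (KO, 3 arrays), NHD13 (3 arrays) and wild type (WT, 6 arrays); each panel has its own axis. Except for Gbp3, the NHD13 points lie above every wild-type point, and Irf7, Isg15 and Cmpk2 have their knockout points above wild type as well.

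Among the transcription factors, which carry the signal to the promoters, Irf7 and Irf9 rose in NHD13. In the values that follow, levels are log2 values of the normalized intensity, given as replicates 1, 2 and 3 of the knockout group and of NHD13 and as the lowest, median and highest of 6 wild-type arrays, and differences are log2 differences ± SE. Irf7, the factor that amplifies type I interferon production, had levels of 7.97, 7.58 and 8.69 in the knockout group, 9.65, 10.45 and 9.44 in NHD13, and 6.24, 6.60 and 7.07 in wild type. The 3 groups did not overlap, with NHD13 highest and wild type lowest. The difference was 3.24 ± 0.29 (adjusted p = 4.55e-05) for NHD13 against wild type, -1.77 ± 0.33 (adjusted p = 0.004) for the knockout group against NHD13, and 1.48 ± 0.29 (adjusted p = 0.00943) for the knockout group against wild type, which was 0.88 without background correction. Irf9, the DNA-binding part of the type I complex, had levels of 9.43, 9.44 and 10.09 in the knockout group, 11.31, 11.49 and 10.96 in NHD13, and 9.39, 9.69 and 9.79 in wild type. NHD13 stood clear of both other groups, and the knockout arrays lay inside the wild-type range apart from replicate 3, which lay above it. Irf9 rose by 1.59 ± 0.19 (adjusted p = 0.000254) in NHD13, and the knockout group differed from NHD13 by -1.60 ± 0.22 (adjusted p = 0.000893). From wild type the knockout group differed by -0.01 (95% interval -0.42 to 0.40). Irf1, a factor of the interferon gamma response, had a difference of 0.50 ± 0.17 (adjusted p = 0.0539) in NHD13 against wild type, just short of the threshold, and fell in the knockout group against NHD13 (-0.66, adjusted p = 0.0306), a call lost with median scaling (-0.42). Stat2, the partner of Irf9, missed the threshold in all 3 comparisons, at 0.76 ± 0.26 (adjusted p = 0.0552) in NHD13 against wild type.

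Of the 4 tested sensors of foreign nucleic acids and their regulators, Dhx58 and Trim25 rose in NHD13. Dhx58 encodes LGP2, a regulator of the RIG-I-like receptors, and had levels of 8.39, 8.03 and 8.59 in the knockout group, 9.53, 10.53 and 9.48 in NHD13, and 7.43, 7.99 and 8.41 in wild type. Each NHD13 array exceeded each array of the other groups, and knockout and wild type overlapped. The difference was 1.94 ± 0.29 (adjusted p = 0.000972) in NHD13 against wild type and -1.51 ± 0.33 (adjusted p = 0.00862) in the knockout group against NHD13, where it was -0.94 (adjusted p = 0.142) with the background class as a block. Trim25, the ubiquitin ligase that acts on RIG-I, had levels of 11.19, 10.98 and 11.57 in the knockout group, 11.74, 12.20 and 11.84 in NHD13, and 11.09, 11.23 and 11.47 in wild type. Its NHD13 arrays lay above all others, and the step was small: 0.68 ± 0.17 (adjusted p = 0.0148) against wild type and -0.68 ± 0.20 (adjusted p = 0.0288) for the knockout group against NHD13, with -0.33 (adjusted p = 0.178) there for the mean of its probes. Ddx58, which encodes RIG-I itself, read 6.83, 7.29 and 7.94 in the knockout group and 8.33, 9.18 and 8.58 in NHD13, a difference of -1.34 ± 0.43 (adjusted p = 0.0446), or -2.38 with the class as a block. Its difference of 0.94 ± 0.37 (adjusted p = 0.0952) in NHD13 against wild type was not called. Zbp1, a sensor of Z-form nucleic acids, was not called in any comparison (0.64, adjusted p = 0.113 in NHD13 against wild type). Ifih1, which encodes MDA5, was detected on 1 wild-type array only and was not tested, and the helicase gene Ddx60 had no annotated probe.

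Both tested members of the ISG15 system rose in NHD13, but knockout against NHD13 was called for Usp18 alone. Isg15 encodes a ubiquitin-like protein that is attached to other proteins during the interferon response, and had levels of 9.38, 10.10 and 11.21 in the knockout group, 12.07, 11.71 and 10.82 in NHD13, and 7.67, 8.32 and 8.80 in wild type. Knockout replicate 3 exceeded NHD13 replicate 3, and every array of both groups exceeded wild type. The difference was 3.22 ± 0.41 (adjusted p = 0.000407) in NHD13 against wild type. Knockout against NHD13 gave -1.30 ± 0.47 (adjusted p = 0.0681), which missed the threshold, and knockout against wild type gave 1.92 ± 0.41 (adjusted p = 0.0144). Usp18 encodes the protease that removes ISG15 and restrains the type I receptor, and had levels of 8.97, 9.36 and 10.31 in the knockout group, 12.48, 12.26 and 11.20 in NHD13, and 8.90, 9.07 and 9.27 in wild type. NHD13 lay above both other groups, and only knockout replicates 2 and 3 lay above the wild-type range. It rose by 2.88 ± 0.31 (adjusted p = 0.000143) in NHD13, and the knockout group differed from NHD13 by -2.43 ± 0.36 (adjusted p = 0.0013) and from wild type by 0.45 ± 0.31 (adjusted p = 0.394), which was not called. The Isg15 call against wild type was lost when only wild-type replicates 1 to 3 were set beside it (adjusted p = 0.0799) and without knockout replicate 3 (adjusted p = 0.0552).

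All 5 tested genes of the IFIT and RNA-directed group rose in NHD13, and 4 of them fell in the knockout group against NHD13. Isg20, an exonuclease that degrades viral RNA, had levels of 7.51, 6.87 and 7.98 in the knockout group, 9.38, 9.18 and 8.89 in NHD13, and 6.02, 6.94 and 7.57 in wild type. NHD13 lay above both other groups, which overlapped, with differences of 2.35 ± 0.36 (adjusted p = 0.00119) from wild type and -1.69 ± 0.41 (adjusted p = 0.0139) for the knockout group against NHD13. With the background class as a block the second was -0.65 (adjusted p = 0.294), so that this call was lost. Adar, the adenosine deaminase that edits double-stranded RNA, had levels of 9.31, 9.54 and 9.77 in the knockout group, 10.24, 10.55 and 9.98 in NHD13, and 9.15, 9.32 and 9.61 in wild type. Its NHD13 arrays exceeded all others, by 0.92 ± 0.17 (adjusted p = 0.00342) over wild type, and knockout against NHD13 gave -0.72 ± 0.20 (adjusted p = 0.0237). Eif2ak2 encodes PKR, the kinase that halts translation on double-stranded RNA, and had levels of 9.45, 9.34 and 9.88 in the knockout group, 10.44, 10.78 and 10.76 in NHD13, and 9.50, 9.78 and 10.21 in wild type. The knockout arrays lay at or below the wild-type median except for replicate 3, and below every NHD13 array. The differences were 0.86 ± 0.20 (adjusted p = 0.0119) in NHD13 against wild type and -1.10 ± 0.24 (adjusted p = 0.00796) in the knockout group against NHD13. Ifit3, a member of the family that binds foreign RNA and its partner proteins, had levels of 8.11, 8.32 and 10.46 in the knockout group, 10.57, 12.03 and 10.58 in NHD13, and 8.64, 9.07 and 9.42 in wild type. Knockout replicate 3 came close to the lower NHD13 arrays, whereas replicates 1 and 2 lay below the whole wild-type range. Ifit3 rose by 2.02 ± 0.48 (adjusted p = 0.0117) in NHD13, and the knockout group differed from NHD13 by -2.10 ± 0.55 (adjusted p = 0.0198). Ifit2, a relative of Ifit3, rose in NHD13 (1.13, adjusted p = 0.019) with no call in the knockout group against NHD13 (-0.78, adjusted p = 0.125). Ifit1 was detected on 0 of 12 arrays.

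The OAS family, enzymes that answer double-stranded RNA by making the 2-5A signal for RNase L, or their catalytically inactive relatives, showed the largest difference of any member. Oas2 had levels of 7.78, 7.15 and 8.17 in the knockout group, 10.26, 12.26 and 11.25 in NHD13, and 6.67, 6.99 and 7.51 in wild type. Every NHD13 array was above 10, and every array of the other groups was below 9. The difference was 4.20 ± 0.38 (adjusted p = 4.86e-05) in NHD13 against wild type, or 18.4-fold, and -3.56 ± 0.43 (adjusted p = 0.000491) in the knockout group against NHD13. Oas3 had levels of 5.39, 5.38 and 5.82 in the knockout group, 7.78, 8.63 and 6.77 in NHD13, and 4.87, 5.33 and 5.67 in wild type. It was detected on all 3 NHD13 arrays but on only 1 knockout and 3 wild-type arrays, so that its levels outside NHD13 lie near background. It rose by 2.43 ± 0.34 (adjusted p = 0.000787) in NHD13 and the knockout group differed from NHD13 by -2.20 ± 0.39 (adjusted p = 0.00327). Without background correction these were 1.18 and -1.09, both still called. Oasl2 had levels of 9.34, 8.18 and 9.70 in the knockout group, 10.37, 11.03 and 10.11 in NHD13, and 7.61, 8.25 and 8.80 in wild type. Knockout replicates 1 and 3 lay above the wild-type range and replicate 2 within it, and all 3 lay below NHD13. The differences were 2.31 ± 0.37 (adjusted p = 0.00165) in NHD13 against wild type and -1.43 ± 0.43 (adjusted p = 0.0334) in the knockout group against NHD13. Oasl1 had levels of 4.81, 7.60 and 9.21 in the knockout group, 9.51, 9.96 and 9.62 in NHD13, and 6.43, 6.88 and 7.16 in wild type. The knockout arrays spanned from below detection on replicate 1 to near NHD13 on replicate 3, the widest knockout range of the 38 members. It rose by 2.86 ± 0.67 (adjusted p = 0.0107) in NHD13, and knockout against NHD13 gave -2.49 ± 0.77 (adjusted p = 0.0383). The second was -1.29 (adjusted p = 0.0394) without knockout replicate 1 and -1.63 without background correction. It was called in only 11 of the 22 fits run for that comparison, with an adjusted p of up to 0.157. Oas1a was below background except on 2 NHD13 arrays and was not tested.

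Of the enzymes that act on nucleotides, Cmpk2 and Rsad2 rose in NHD13. They are neighbours on chromosome 12, and Rsad2 encodes viperin, which turns CTP into a chain terminator of viral RNA synthesis. Cmpk2, a mitochondrial nucleotide kinase, had levels of 8.81, 8.14 and 9.59 in the knockout group, 10.38, 10.92 and 10.36 in NHD13, and 6.45, 7.14 and 7.66 in wild type. As with Irf7, the 3 groups did not overlap and the knockout group stood in the middle. The difference was 3.48 ± 0.31 (adjusted p = 4.86e-05) in NHD13 against wild type, -1.71 ± 0.36 (adjusted p = 0.00719) in the knockout group against NHD13, and 1.77 ± 0.31 (adjusted p = 0.00594) in the knockout group against wild type. Rsad2 had levels of 7.60, 7.62 and 9.77 in the knockout group, 9.84, 10.81 and 10.36 in NHD13, and 6.98, 7.43 and 8.03 in wild type. Knockout replicate 3 lay just below the lowest NHD13 array, and replicates 1 and 2 fell inside the wild-type range. Rsad2 rose by 2.86 ± 0.44 (adjusted p = 0.00131) in NHD13, and knockout against NHD13 gave -2.01 ± 0.51 (adjusted p = 0.0168). Samhd1, which depletes the cell's nucleotides, was not called in any comparison (0.49, adjusted p = 0.381 in NHD13 against wild type).

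The dynamin-like Mx genes rose in NHD13, and the guanylate-binding genes of the list did not. Mx2 had levels of 6.14, 6.51 and 7.95 in the knockout group, 8.48, 9.34 and 8.65 in NHD13, and 5.70, 6.09 and 6.43 in wild type. NHD13 exceeded every other array, and knockout replicate 3 exceeded the other knockout arrays by more than 1 log2 unit. The differences were 2.77 ± 0.35 (adjusted p = 0.00039) in NHD13 against wild type and -1.95 ± 0.40 (adjusted p = 0.00644) in the knockout group against NHD13. Mx1 had levels of 5.47, 5.01 and 5.82 in the knockout group, 7.07, 7.77 and 7.21 in NHD13, and 5.13, 5.63 and 6.16 in wild type. It was detected on all NHD13 arrays, on 2 of 3 knockout arrays and on 4 of 6 wild-type arrays, and knockout and wild type overlapped. Mx1 rose by 1.77 ± 0.26 (adjusted p = 0.00103) in NHD13, and knockout against NHD13 gave -1.92 ± 0.30 (adjusted p = 0.00175). Without background correction the differences stayed called at 1.67 and -1.26 for Mx2 and at 0.80 and -0.85 for Mx1. Gbp2, a GTPase that attacks pathogen vacuoles and answers mainly to interferon gamma, had a difference of 0.76 ± 0.33 (adjusted p = 0.126) in NHD13 against wild type, which was not called, and fell in the knockout group against NHD13 (-1.22, adjusted p = 0.0411), a call lost without knockout replicate 1 (-0.67). That call held in only 8 of the 22 fits run for that comparison. Gbp3 had levels of 8.52, 8.60 and 8.99 in the knockout group, 8.45, 9.39 and 8.25 in NHD13, and 8.81, 8.96 and 9.29 in wild type. Its groups overlapped, and it was the only tested member with a negative difference in NHD13 against wild type (-0.32, adjusted p = 0.374, 95% interval -0.83 to 0.19).

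Rtp4 and Ifi27 rose among the 4 membrane and trafficking proteins. Rtp4, a Golgi chaperone that limits flavivirus replication in mammals, had levels of 5.75, 6.29 and 7.12 in the knockout group, 8.23, 8.66 and 7.49 in NHD13, and 4.91, 5.33 and 5.88 in wild type. It was detected on every NHD13 and knockout array and on 3 of 6 wild-type arrays, so the fold against wild type rests on levels near background. The difference was 2.75 ± 0.32 (adjusted p = 0.000243) in NHD13 against wild type and -1.74 ± 0.37 (adjusted p = 0.00767) in the knockout group against NHD13. Without background correction these were 1.39 and -0.99, both still called. Against wild type, Rtp4 in the knockout group reached 1.01 ± 0.32 (adjusted p = 0.0694), short of the threshold. Ifi27 had levels of 11.12, 12.36 and 13.02 in the knockout group, 13.34, 13.13 and 13.07 in NHD13, and 11.82, 12.02 and 12.23 in wild type. NHD13 lay above both groups although knockout replicate 3 lay just below it, and Ifi27 rose by 1.17 ± 0.31 (adjusted p = 0.0202) with no call for knockout against NHD13 (-1.01, adjusted p = 0.0659). Bst2, the tetherin that holds budding virions at the cell surface, missed the threshold at 0.87 ± 0.29 (adjusted p = 0.0525) in NHD13 against wild type. Ifitm3, which blocks virus entry from endosomes, had levels of 13.57, 9.36 and 9.22 in the knockout group, 11.34, 11.97 and 10.23 in NHD13, and 9.08, 9.53 and 10.09 in wild type. Knockout replicate 1, the array with the raised myeloid markers, was the highest of all 12 arrays, and no comparison was called. Without that array Ifitm3 was higher in NHD13 than in wild type (adjusted p = 0.00432) and lower in the knockout group than in NHD13 (-1.89, adjusted p = 0.0105).

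The nuclear and PARP proteins rose in NHD13 in all 3 tested cases and fell in all 3 in the knockout group against NHD13. Parp14, a mono-ADP-ribosyl transferase, had levels of 10.44, 10.51 and 11.28 in the knockout group, 11.53, 12.43 and 11.66 in NHD13, and 10.21, 10.41 and 10.51 in wild type. Knockout replicate 3 lay between NHD13 and wild type, with replicates 1 and 2 close to the top of the wild-type range. Its differences were 1.49 ± 0.23 (adjusted p = 0.00124) in NHD13 against wild type and -1.13 ± 0.26 (adjusted p = 0.0117) in the knockout group against NHD13. Parp9, the partner of the ubiquitin ligase Dtx3l, had levels of 6.04, 6.33 and 6.36 in the knockout group, 6.68, 7.78 and 7.43 in NHD13, and 6.35, 6.50 and 6.72 in wild type. NHD13 replicate 1 lay within the wild-type range, the only overlap with wild type among the 28 members that rose. It rose by 0.78 ± 0.21 (adjusted p = 0.0205), and knockout against NHD13 gave -1.05 ± 0.24 (adjusted p = 0.0111). Without background correction these were 0.42 and -0.54, both still called, and the second was -0.69 for the mean of its probes. Sp100, a scaffold protein of nuclear bodies, had levels of 8.41, 9.78 and 10.09 in the knockout group, 10.47, 11.64 and 11.20 in NHD13, and 9.70, 9.95 and 10.18 in wild type. Knockout replicate 1 lay well below the wild-type range, and the differences were 1.16 ± 0.34 (adjusted p = 0.0297) in NHD13 against wild type and -1.68 ± 0.39 (adjusted p = 0.0113) in the knockout group against NHD13. Ifi204, a DNA sensor of the Ifi200 family, was detected on 0 arrays, and its relative Ifi203 had no annotated probe, like Herc6 of the ISG15 system and Ifi44.

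In antigen processing, Tap1 and the immunoproteasome subunit Psmb9 rose. Tap1, a subunit of the transporter that loads peptides onto class I molecules, had levels of 8.38, 9.17 and 9.05 in the knockout group, 10.09, 10.68 and 10.38 in NHD13, and 8.65, 9.22 and 9.54 in wild type. NHD13 was clear of the other groups, which overlapped, with differences of 1.26 ± 0.26 (adjusted p = 0.00599) from wild type and -1.51 ± 0.30 (adjusted p = 0.0054) for the knockout group against NHD13, where it was -0.83 (adjusted p = 0.102) with the background class as a block. Psmb9 had levels of 11.77, 12.11 and 12.21 in the knockout group, 12.34, 12.52 and 12.34 in NHD13, and 11.58, 11.89 and 11.99 in wild type. Its groups in NHD13 and wild type did not overlap, but the step was the smallest among the 28 members that rose (0.55, adjusted p = 0.0215), and knockout against NHD13 was not called (-0.37, adjusted p = 0.152). Psmb8, another immunoproteasome subunit, was not called (0.47, adjusted p = 0.143 in NHD13 against wild type). Lgals3bp, a secreted glycoprotein that binds galectins, had levels of 11.58, 11.45 and 12.04 in the knockout group, 12.61, 13.15 and 12.57 in NHD13, and 11.25, 11.61 and 11.87 in wild type. The NHD13 arrays lay above both groups, by 1.19 ± 0.21 (adjusted p = 0.00268) over wild type, and knockout against NHD13 gave -1.09 ± 0.24 (adjusted p = 0.0093), or -0.65 (adjusted p = 0.146) with the class as a block. Ifi35, an interferon-induced leucine zipper protein, had levels of 8.76, 8.63 and 9.24 in the knockout group, 9.92, 9.73 and 9.30 in NHD13, and 8.08, 8.32 and 8.67 in wild type. It rose by 1.29 ± 0.19 (adjusted p = 0.00113) in NHD13, and the knockout group differed from NHD13 by -0.77 ± 0.22 (adjusted p = 0.0299), with replicate 3 just below the nearest NHD13 array. The chemokine Cxcl10 and Xaf1, a partner of the apoptosis inhibitor XIAP, were too dim to test.

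**Figure D4:**
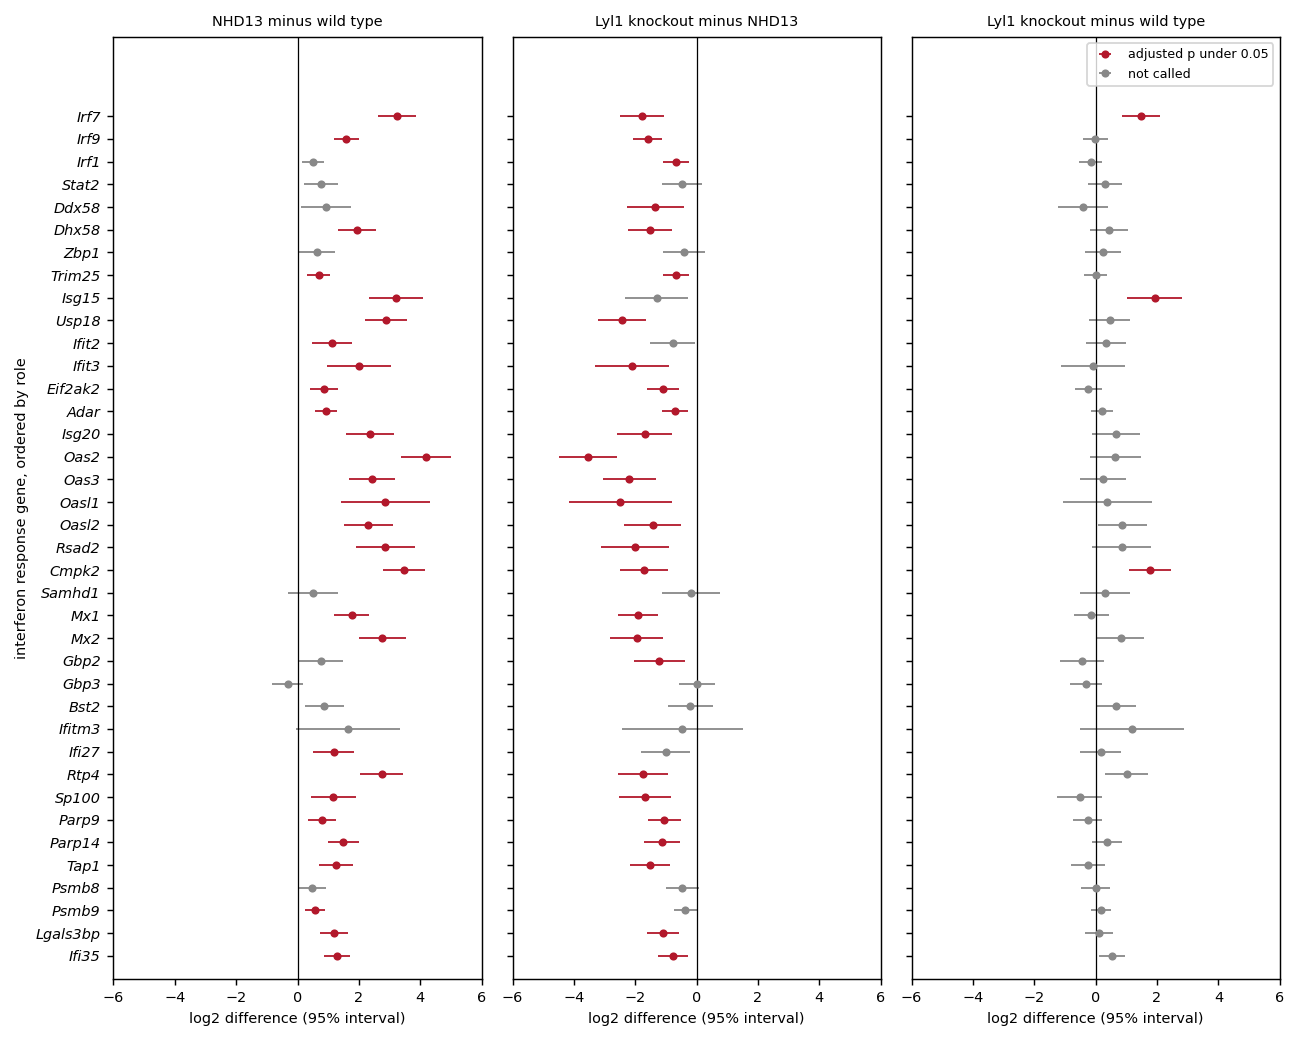
Log2 difference with its 95% interval for each of 38 members in NHD13 minus wild type, knockout minus NHD13 and knockout minus wild type, in red where limma's adjusted p was under 0.05. In the left panel 28 members are red and right of 0, in the middle 27 are red and left of 0, and on the right only Irf7, Isg15 and Cmpk2 are red.

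Members thus fell into few patterns of calls. Irf7 and Cmpk2 were called in all 3 comparisons. A further 22 members were higher in NHD13 than in wild type and lower in the knockout group than in NHD13, with no call between the knockout group and wild type. Isg15 was higher in both transgenic groups than in wild type. Ifit2, Ifi27 and Psmb9 were called only in NHD13 against wild type, and Irf1, Ddx58 and Gbp2 only in the knockout group against NHD13. Stat2, Zbp1, Samhd1, Gbp3, Bst2, Ifitm3 and Psmb8 were called in none. A p that misses the threshold does not show that the groups were alike: the 95% interval of the NHD13 difference from wild type was 0.20 to 1.33 for Stat2 and 0.24 to 1.51 for Bst2. Under all 22 alternative settings as well, 19 of the 28 members stayed higher in NHD13 (Adar, Cmpk2, Dhx58, Ifi35, Irf7, Irf9, Isg15, Isg20, Lgals3bp, Mx1, Mx2, Oas2, Oas3, Oasl2, Parp14, Rsad2, Rtp4, Tap1 and Usp18). The other 9 lost that call without NHD13 replicate 2 (Eif2ak2, Ifi27, Ifit2, Ifit3, Oasl1, Parp9, Psmb9, Sp100 and Trim25). In the knockout group against NHD13, 12 of the 27 lost theirs without NHD13 replicate 2 or without knockout replicate 2 (Adar, Ddx58, Gbp2, Ifi35, Ifit3, Irf1, Isg20, Oasl1, Oasl2, Rsad2, Sp100 and Trim25). Calls over all probes in these comparisons also fell without these arrays. For that comparison Eif2ak2, Irf9, Mx1, Oas2, Oas3 and Usp18 were called under every setting run. Of 19 members with several kept probes, 6 had probes that differed in call in NHD13 against wild type (Adar, Ifit2, Irf1, Parp9, Psmb8 and Trim25), and 0 had probes called in opposite directions.

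Part of the genes that make and carry interferon signals rose in NHD13. Of 61 listed genes of the pathway, 36 were tested, and in NHD13 9 were higher and 0 lower than in wild type (limma; at an unadjusted p under 0.05, 10 higher and 0 lower), a share of higher calls to be read against 11.6% of all genes. Interferons themselves gave no call. Ifnb1, Ifnk and 8 interferon alpha genes (Ifna2, Ifna4, Ifna5, Ifna7, Ifna9, Ifna11, Ifna13 and Ifna14) were detected on 0 of 12 arrays. Ifng, interferon gamma, read 4.70, 6.47 and 7.59 in the knockout group, 5.31, 5.89 and 7.63 in NHD13 and 6.52, 7.34 and 8.18 in wild type, with a difference of -1.09 ± 0.64 (adjusted p = 0.259) in NHD13 against wild type. Its highest NHD13 array lay inside the wild-type range. Ifna1, Ifna6, Ifnab and Ifnz were tested and not called, with differences between -0.17 and 0.07 in NHD13 against wild type.

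Of the receptors, Ifnar2, the signalling chain for type I interferons, rose by 0.91 ± 0.24 (adjusted p = 0.0209) in NHD13. It had levels of 9.89, 9.29 and 9.03 in the knockout group, 9.99, 10.10 and 9.89 in NHD13, and 8.55, 9.16 and 9.51 in wild type. Knockout replicate 1 matched the lowest NHD13 level at this precision, and the other 2 knockout arrays lay within the wild-type range. Ifnar1 was detected on 0 arrays, and the receptor chains for interferon gamma gave no call (0.38, adjusted p = 0.253 for Ifngr1 and 0.33, adjusted p = 0.518 for Ifngr2 in NHD13 against wild type).

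Jak2, Tyk2 and Stat3 rose in NHD13 among the kinases and STATs. Jak2, a kinase of the interferon gamma receptor and of many cytokine receptors, rose by 0.81 ± 0.19 (adjusted p = 0.0108), and the knockout group differed from NHD13 by -1.09 ± 0.22 (adjusted p = 0.00569). Stat3, which also serves interleukin receptors, had levels of 11.39, 11.33 and 10.95 in the knockout group, 11.68, 12.18 and 12.21 in NHD13, and 10.66, 10.99 and 11.14 in wild type. NHD13 did not overlap either group, and the differences were 1.09 ± 0.19 (adjusted p = 0.00223) in NHD13 against wild type and -0.80 ± 0.21 (adjusted p = 0.0213) in the knockout group against NHD13. Tyk2, a kinase of the type I receptor, rose by 0.49 ± 0.15 (adjusted p = 0.0368). Jak1 was not called (0.26, adjusted p = 0.644). Of 8 inhibitors, only the phosphatase gene Ptpn6 rose (0.91, adjusted p = 0.0024) and it fell in the knockout group against NHD13 (-0.85, adjusted p = 0.0075). Socs1, the feedback inhibitor of the Jak kinases, was not called (0.53, adjusted p = 0.435 in NHD13 against wild type).

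Adaptors and kinases that switch on interferon genes gave 4 of the 9 higher calls. Sting1, the adaptor of the cytosolic DNA pathway, had levels of 8.84, 7.67 and 8.58 in the knockout group, 8.24, 9.01 and 8.92 in NHD13, and 7.05, 7.32 and 7.40 in wild type. Both transgenic groups lay above every wild-type array and overlapped each other. It was higher by 1.43 ± 0.25 (adjusted p = 0.00251) in NHD13 than in wild type and by 1.07 ± 0.25 (adjusted p = 0.0214) in the knockout group than in wild type, the only pathway gene called there, while knockout against NHD13 was not called (-0.36, adjusted p = 0.408). Without knockout replicate 1 or 3 the Sting1 call against wild type was lost. Mavs, the adaptor of the RIG-I-like receptors, rose by 0.81 ± 0.19 (adjusted p = 0.0118) in NHD13 and fell in the knockout group against NHD13 (-0.71, adjusted p = 0.0402). Ikbke, a kinase of Irf3 and Irf7, rose by 0.88 ± 0.25 (adjusted p = 0.025) in NHD13 and fell likewise (-0.95, adjusted p = 0.034). Myd88, the adaptor of most Toll-like receptors, rose by 0.90 ± 0.26 (adjusted p = 0.0302), with no call for the knockout group against NHD13 (-0.37, adjusted p = 0.429). Irf3, a factor that these routes switch on, was not called in NHD13 against wild type (0.21, adjusted p = 0.288) or in the knockout group against NHD13 (-0.20, adjusted p = 0.384). Over the 36 pathway genes the median log2 difference was 0.24 in NHD13 against wild type and -0.07 in the knockout group against NHD13, where 5 were lower (Jak2, Stat3, Ptpn6, Mavs and Ikbke) and 0 higher, beside 9.22% lower and 13% higher over all genes (limma, with 7 lower and 0 higher at an unadjusted p under 0.05). These counts changed when single arrays were left out. Without NHD13 replicate 2 they were 3 higher in NHD13 than in wild type and 2 lower in the knockout group than in NHD13. Without NHD13 replicate 3 they were 4 and 2, and without knockout replicate 2 or 3 the second was 3. Over all probes the share higher in NHD13 also fell, from 9.79% to 5.75% and 5.55% without these NHD13 arrays in turn. The share lower in the knockout group than in NHD13 fell likewise, from 9.77% to 5.45% and 5.81%. Without knockout replicate 2 or 3 it was 6.86% and 8.3%. Stat3, Ptpn6 and Sting1 kept the first call, and Jak2 and Ptpn6 the second, whichever array was left out.

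Among 24 listed symbols of genes that answer mainly to interferon gamma or serve class I presentation, some rose with the members. Of 18 tested, 6 rose in NHD13 and 0 fell (limma; at an unadjusted p under 0.05, 10 higher and 0 lower), beside 11.6% higher and 12.6% lower over all genes, with a median of 0.84. These were the immunity-related GTPases Irgm2 (1.30, adjusted p = 0.0157), Igtp (1.19, adjusted p = 0.0221) and Tgtp1 (1.61, adjusted p = 0.00651), the checkpoint ligand Cd274 (1.04, adjusted p = 0.0301), the non-classical class I gene H2-T23 (1.34, adjusted p = 0.00129) and the peptide transporter subunit Tap2 (0.89, adjusted p = 0.0093). The other 12 were not called, with differences that ran from -1.23 to 1.73. Among them Irgm1 (-0.12, adjusted p = 0.582) and the class I light chain B2m (0.03, adjusted p = 0.922) lay near 0. In 10 of the 18 every NHD13 array lay above every wild-type array, against 14.8% of all genes. In the knockout group against NHD13, 4 fell and 0 rose (limma; at an unadjusted p under 0.05, 7 lower and 0 higher), beside 9.22% lower over all genes. They were Nlrc5, the transactivator of class I genes (-3.05, adjusted p = 0.0181), H2-K1 (-1.57, adjusted p = 0.0429), H2-D1 (-1.82, adjusted p = 0.00997) and H2-T23 (-1.53, adjusted p = 0.00168). For Nlrc5 the lowest knockout level was 5.11, on replicate 1, and the median knockout level 8.99, with the third array at nearly the same level, against 10.34, 11.21 and 10.69 in NHD13. Without that array the differences were -1.75 (adjusted p = 0.00231) for Nlrc5, -0.89 (adjusted p = 0.103) for H2-K1, which was then not called, and -1.21 (adjusted p = 0.00627) for H2-D1. Between the knockout group and wild type 0 were called (limma; at an unadjusted p under 0.05, 1 higher and 3 lower). Without knockout replicate 1, 10 of the 18 rose in NHD13 against wild type, and without NHD13 replicate 2 it was 2, beside 11.9% and 5.75% of all probes. Without NHD13 replicate 2 or 3, 2 fell in the knockout group against NHD13, beside 5.45% and 5.81% of all probes. Tgtp1 and H2-T23 kept the first call, and H2-D1 and H2-T23 the second, whichever array was left out. H2-K1 and H2-D1 belong to a family of near-identical genes whose transcripts a probe may not tell apart.

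**Figure D5:**
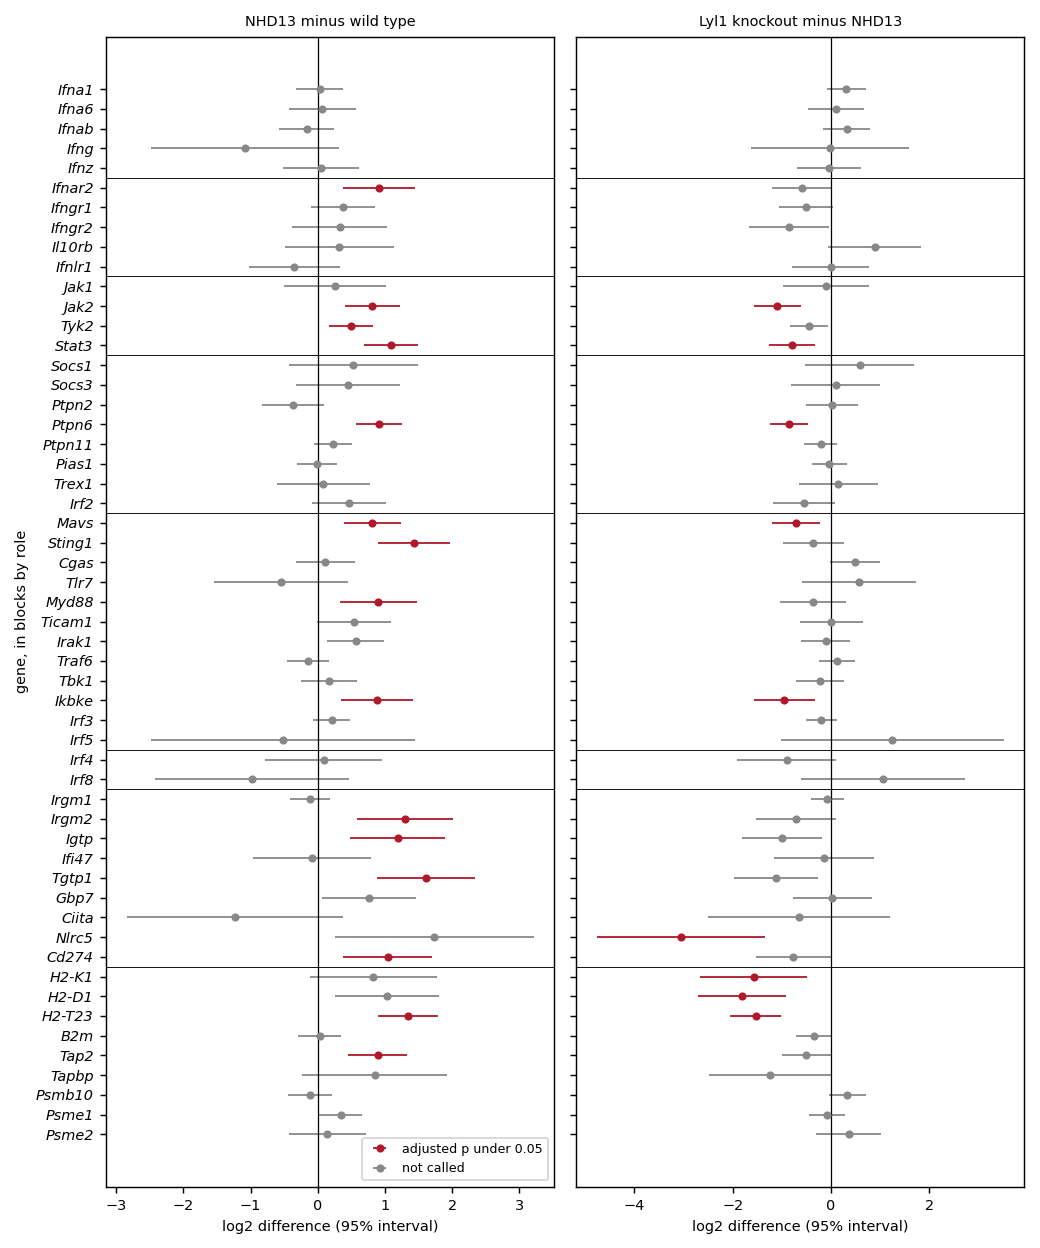
Log2 difference with its 95% interval for 36 genes of interferon production and signalling and 18 genes of the interferon gamma and class I lists, in blocks by role, for NHD13 minus wild type (left) and knockout minus NHD13 (right), in red where limma's adjusted p was under 0.05. On the left 15 genes are red and all lie right of 0, and on the right 9 are red and all lie left of 0; the interferon ligands in the first block are grey in both panels.

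Markers of other cells that the DN gate could hold moved with the groups in part, and their share in the interferon genes' levels was not tested. Summed levels below are on the linear intensity scale over the tested markers of each list. Plasmacytoid dendritic cells are known as strong producers of interferon alpha. Of 8 of their markers 6 were tested, and their sum was 4720 to 4930 in the knockout group, 5470 to 9490 in NHD13 and 2380 to 4420 in wild type. The sum did not stand for the list: Tcf4 was higher in NHD13 than in wild type (1.77, adjusted p = 0.00119), and the other 5 had negative differences (median over the 6, -1.01), of which Klk1 was called lower (-1.82, adjusted p = 0.00645). Ccr9 was detected on 0 arrays. Siglech, a surface marker of these cells, had levels of 4.89, 5.98 and 5.52 in the knockout group, 6.85, 7.54 and 7.96 in NHD13 and 7.70, 8.13 and 8.58 in wild type, with the knockout arrays below all others. The list did not move as Siglech did. In the knockout group against NHD13, 4 of the 6 had positive differences (median 0.17). There 2 were called lower (limma), beside 9.22% of all genes. Against wild type 4 of the 6 were negative (median -0.57), and 2 were called lower, beside 3.81% of all genes. CD4+CD8+ thymocyte markers (2 of 3 tested) summed to 3940 to 5780 in the knockout group, 6450 to 11900 in NHD13 and 2570 to 5440 in wild type, so that NHD13 lay above both. Of the pair, Cd8b1 was higher in NHD13 (1.09, adjusted p = 0.0158) and Cd4, near background, was not called (-0.11, adjusted p = 0.8). Neutrophil and myeloid markers (9 of 9 tested) summed to 344 to 71300 in the knockout group, 1620 to 38600 in NHD13 and 2520 to 14600 in wild type. In NHD13 against wild type 8 of these 9 had positive differences (median 0.42) and 0 were called (limma; also 0 at an unadjusted p under 0.05).

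Macrophage markers (3 of 9 listed symbols tested, with Adgre1 also listed as Emr1) summed to 89.3 to 2620 in the knockout group, 79.7 to 116 in NHD13 and 128 to 211 in wild type. Conventional dendritic cell markers (5 of 9 tested, Itgax and Flt3 undetected) summed to 1920 to 2480 in the knockout group, 2770 to 10000 in NHD13 and 4640 to 19600 in wild type. All 5 had negative differences in NHD13 against wild type (median -1.19), with 0 called. In the knockout group against wild type 4 of the 5 were negative (median -2.25), and 3 were called lower (limma), beside 3.81% of all genes. NK cell markers (3 of 7 tested, Ncr1 undetected) summed to 2310 to 5720 in the knockout group, 11200 to 15000 in NHD13 and 5190 to 6820 in wild type, with Nkg7 higher in NHD13 (1.47, adjusted p = 0.00668) and Klrb1c lower (-2.37, adjusted p = 0.0169).

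Of the erythroid and the stromal list 2 markers each were tested. In NHD13 against wild type 1 of each was higher, beside 11.6% of all genes. The globin Hba-a1 read 4.58, 5.50 and 7.39 in the knockout group, 11.70, 12.85 and 10.02 in NHD13 and 4.73, 6.48 and 7.88 in wild type, a difference of 5.24 ± 0.78 (adjusted p = 0.00104) in NHD13 against wild type. Hba-a1 was called lower in the knockout group than in NHD13 (-5.70). Klf1, an erythroid transcription factor, was not called in NHD13 against wild type (0.40, adjusted p = 0.154). In the knockout group it was called higher than in wild type (0.69). Of the stromal markers, Pdgfrb, a receptor of mesenchymal cells, differed by 3.25 ± 0.54 (adjusted p = 0.00194) in NHD13 against wild type and Krt8, a keratin, was not called (0.14, adjusted p = 0.705), while the epithelial genes Epcam, Foxn1 and Krt5 were detected on 0 arrays. Both tested stromal markers had every knockout array below every NHD13 array (differences of -2.04 and -0.72), against 16.6% of all genes. Of them 1 was called lower, beside 9.22% of all genes. B cell markers (2 of 5 tested) summed to 674 to 1030 in the knockout group, 1690 to 1910 in NHD13 and 969 to 2760 in wild type. Within the T lineage, the summed level was 14100 to 66400 in the knockout group, 44600 to 66900 in NHD13 and 68100 to 74000 in wild type. Rag1, which cuts the receptor genes for rearrangement, differed by -4.94 ± 0.65 (adjusted p = 0.000546) in NHD13 against wild type, and Ptcra, the pre-receptor alpha chain, by -3.39 ± 0.61 (adjusted p = 0.00306). In the knockout group both were higher than in NHD13, by 4.44 ± 0.75 (adjusted p = 0.0025) and 3.20 ± 0.71 (adjusted p = 0.00906). The other 6 tested T-lineage genes were called in neither comparison, and 5 of the 8 had negative differences in the knockout group against NHD13 (median -0.13). In the knockout group against wild type 7 of the 8 had negative differences (median -0.68), and 1 was called lower (limma), beside 3.81% of all genes. Rag1 and Ptcra differed between the same groups as the interferon genes, and their part in those genes' levels was not tested.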

How the data were processed

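RNA of sorted CD4-CD8 double-negative mouse thymocytes was hybridised to 12 Illumina beadchip arrays. The deposited non-normalized table gives a summary intensity and a detection p-value for each probe and array, per the file headers. The submitters' processing notes name BeadStudio and limma, with no role or version. The sources used here do not say whether the intensity had been background-subtracted. The deposited log2 table of the authors holds processed values of the same arrays and served as an alternative.

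The intensities were background-corrected with normexp, using negative-control statistics inferred from the detection p-values, then quantile-normalized and log2-transformed with limma's neqc (limma 3.58.1, R 4.3.3, offset 16). Probes were named from the platform annotation: 34885 probes had 1 symbol, 18 several and 10378 none. Probes detected at p under 0.05 on at least 3 arrays were kept, and each gene was represented by its kept probe with the highest mean. Group means over all 12 arrays were fitted with lmFit and eBayes, with Benjamini-Hochberg adjustment over 20416 probes and a threshold of 0.05. The tests were tried on simulated data. Groups came from the labels. Array numbers limit the precision. No 2 arrays held identical values.

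The members and lists were chosen with earlier results of these data known. Values by array are given for the top 2 members of each role group by adjusted p in NHD13 against wild type, the top 1 in the other comparisons, members called in opposite directions in 2 comparisons, and members called against the direction of most. The background classes were read from the arrays and are not a labelled batch. Alternatives were median scaling, no background correction, the authors' table, no filter or a stricter one, only the groups compared, the class as a block or the class's own wild-type arrays, a replicate block, the mean of a gene's probes, and each array left out. Same-numbered arrays of 2 groups did not deviate together, so the numbers were not taken as pairs.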

Additional observations from a re-analysis of the deposited data

Results flagged for a closer look

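Irf9 had a log2 level of 9.39 on wild-type replicate 6, apart from the other 5 wild-type arrays at 9.66 to 9.79. It was the only one of 38 member genes whose 6 wild-type arrays held such a value, a check that chance meets in about 1 of 20 groups.

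Oas1a and Cxcl10 were too dim for the tests but carried signal in NHD13. The Oas1a probe had a mean log2 level of 5.68 in NHD13, with detection on 2 of 3 NHD13 arrays and on none of the knockout or wild-type arrays, and wild type lay at 4.54 to 5.04. A Cxcl10 probe had a mean of 5.69 in NHD13, detected on 2 of 3 NHD13 arrays and on none of the others, and wild type lay at 4.48 to 4.94. Neither difference was tested.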

How the results depend on the processing

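The count of interferon response genes higher in NHD13 than in wild type (28) stayed within 1.5 times of itself under all 22 alternatives, with 22 under the replicate block. With 1 array left out, 20 to 31 were called in either direction, the 20 being 19 higher and Gbp3 lower. Over all probes 9.79% were higher in the main fit, 8.86% under the replicate block and 5.55% to 11.9% with 1 array left out. Their count in the knockout group against NHD13 (27) was 12 with only these 2 groups in the fit, 12 with the background class as a block, 19 with the replicate block, and 16 to 29 with 1 array left out. Over all probes 9.77% were lower in the main fit and 4.75% with only these 2 groups. The share was 6.93% with the class as a block, 7.52% with the replicate block and 5.45% to 10.7% with 1 array left out. Against wild type the knockout group's 3 became 5 with median scaling, 5 with the class as a block and 2 with the replicate block. These settings had 10.9%, 7.02% and 2.4% of all probes higher, against 4.07% in the main fit. With 1 array left out the count was 2 to 5 members. Irf7 missed the threshold under the replicate block (adjusted p = 0.0525), as did Isg15 (adjusted p = 0.1). Same-numbered arrays did not pair: the correlations of their deviations ran from -0.158 to 0.227. For the pathway, the 9 called in NHD13 against wild type became 5 with the replicate block and 3 to 10 with 1 array left out. Its 5 called in the knockout group against NHD13 became 1 with median scaling, 3 with no filter, 1 with only these groups, 2 with the class or the replicate block, 8 with the mean of a gene's probes and 2 to 6 with 1 array left out. Its 1 call in the knockout group against wild type became 4 with median scaling, 2 with no background correction, 2 with the class as a block, 0 against wild type of the same class, 0 with the replicate block, 3 with the mean of probes and 0 to 2 with 1 array left out. The shares over all probes moved with the setting too. In the knockout group against NHD13, 10.3% were lower with median scaling, 3.75% with no filter and 9.86% of genes with the mean of probes. Against wild type, 4.38% were higher with no background correction, 2.08% within the class and 4.19% of genes with the mean of probes. For the gamma and class I genes, the 6 called in NHD13 against wild type became 10 with only these groups and 2 to 10 with 1 array left out, and the 4 called in the knockout group against NHD13 became 2 and 2 to 6. Their count of 0 in the knockout group against wild type became 3 with median scaling, 1 with the class as a block, 2 against wild type of the same class, 1 with the replicate block and 0 to 1 with 1 array left out. Over all probes, 11.3% were higher in NHD13 than in wild type with only these groups. Lower in the knockout group than in wild type were 5.5% in the main fit and 3.81% with median scaling. That share was 7.9% with the class as a block, 4.14% within the class and 4.43% with the replicate block. Fits of 2 groups or of fewer arrays hold fewer samples; the cause of the other shifts was not tested. Over single members, 2286 of the alternative values kept their side of the threshold, 134 lost a call and 50 gained one. The sign changed in 54 values, none of them called under either setting. Signal near background limits Oas3, Mx1 and Rtp4.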

Other observations

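Relatives of the listed genes, taken by the start of their symbols after values had been seen, held further calls in the same directions. Of 29 tested relatives, 15 were higher and 0 lower in NHD13 than in wild type (limma, median log2 difference 0.93), beside 11.6% higher over all genes. In the knockout group 10 were lower and 0 higher than in NHD13 (median -0.61), beside 9.22% lower over all genes. Among those with both calls were Oas1g (3.17 in NHD13 against wild type and -2.43 in the knockout group against NHD13), a copy of the 2-5A synthetase gene whose near-identical neighbours a probe may not separate, and the mitochondrial protein gene Ifi27l2a (2.00 and -1.63). The Ifi200-family gene Mndal (1.56 and -2.19), Ifit1bl1 of the IFIT family (1.64 and -2.09), Phf11d (1.67 and -2.37) and Parp10 (0.93 and -1.17) did likewise. Trim30a (1.42, adjusted p = 0.00989) and Slfn2 (1.52, adjusted p = 0.024) were called in NHD13 against wild type, with no call in the knockout group against NHD13.

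Gbp10 was not called in NHD13 against wild type (-0.29, adjusted p = 0.612) and was lower in the knockout group than in both NHD13 (-1.61, adjusted p = 0.0168) and wild type (-1.90, adjusted p = 0.00792). It was the only relative called between the knockout group and wild type.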
